A study of Mus musculus with 2 samples.

Results

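Of the γδ T cells sorted from lung for the Vγ1 chain, 704 read a δ chain variable gene of the Trav15 (dv6) family and few transcripts of an effector program. The cells were chosen by measured counts of unique molecular identifiers (UMIs, each standing for 1 captured transcript molecule). A member had at least 1 UMI of a gene whose symbol starts with Trav15 and contains dv6, 0 UMIs of Trdv1, Trdv2-2, Trdv4 and Trdv5, and a UMI in fewer than 3 of 8 effector markers (Tmem176a, Tmem176b, Cxcr6, Il18r1, Aqp3, Ccr6, Icos and Serpinb1a). They were 704 of the 6634 kept cells of their library, or 10.6% (exact 95% interval 9.88 to 11.4), and of 9139 kept cells in both libraries. They were set beside cells of the same library that were also below 3 markers and read only Trdv1 (564 cells) or only Trdv2-2 (737 cells).

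The library came from uninfected mice of the strain B6.Cg-Tcrgtm1lku (B6.Vg4-/-Vg6-/-), which lack the Vγ4 and Vγ6 chains, and held their lung Vγ1+ T cells. The other library of the study held lung Vγ1- T cells of uninfected C57BL/6NCrl mice. Mice of both groups were 5 to 7 weeks old, and each group was 1 library. How many animals were pooled is not stated in the sources, and mice of both sexes were used in the study. Sort, genotype, strain and library differ together, so nothing is compared between the libraries, and the comparisons below lie within the 1 library labelled KO and have no replicate check. No test was run, and every interval covers counting error only.

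A γδ T cell receptor pairs a rearranged γ chain with a rearranged δ chain. Mouse δ chains draw on dedicated Trdv genes and on a few genes of the α locus that can join to either constant region, among them the Trav15 (dv6) family, known as Vδ6. Vγ1 cells with Vδ6 chains include an innate-like subset, often called γδ NKT cells, that expresses the transcription factor PLZF, encoded by Zbtb16, and can make IL-4 together with IFN-γ. The 8 effector markers are genes of tissue-resident and IL-17-type γδ cells, so the cells described here are the Vδ6 cells in which that program was read at a low level or not at all.

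The members rest on 4 genes on the forward strand of chromosome 14 of GRCm38. Trav15-2-dv6-2 (ENSMUSG00000076848) gave 1417 UMIs in 410 members, or 64.1% of all 2211 dv6 UMIs. Trav15-1-dv6-1 (ENSMUSG00000094016) gave 668 UMIs in 233 members, Trav15d-1-dv6d-1 (ENSMUSG00000096653) 123 UMIs in 112 members, and Trav15d-2-dv6d-2 (ENSMUSG00000105953) 3 UMIs in 3 members. Only 1 of the 4 genes was read in 651 members and more than 1 in 53, of which 42 read Trav15-1-dv6-1 with Trav15-2-dv6-2. A single dv6 UMI carried the assignment in 260 members (36.9%), and in 89 of the 100 members that read Trav15d-1-dv6d-1 alone.

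The end of the second exon of the 3 genes that define nearly all members is shown because the assignment rests on telling these sequences apart. Each is the last 300 bases of the exon, 5′ to 3′, from the GENCODE transcripts of GRCm38, at chr14:53559948-53560247 (Trav15-1-dv6-1), chr14:53649695-53649994 (Trav15-2-dv6-2) and chr14:52863637-52863936 (Trav15d-1-dv6d-1). Capitals mark bases that differ from, or have no partner in, at least 1 of the other two in pairwise alignments.
Trav15-1-dv6-1: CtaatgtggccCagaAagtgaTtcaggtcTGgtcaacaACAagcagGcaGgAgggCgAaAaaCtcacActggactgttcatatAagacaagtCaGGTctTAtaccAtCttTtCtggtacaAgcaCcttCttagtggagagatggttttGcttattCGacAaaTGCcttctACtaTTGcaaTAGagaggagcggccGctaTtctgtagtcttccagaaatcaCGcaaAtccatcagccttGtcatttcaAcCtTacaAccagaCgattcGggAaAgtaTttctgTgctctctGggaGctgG
Trav15-2-dv6-2: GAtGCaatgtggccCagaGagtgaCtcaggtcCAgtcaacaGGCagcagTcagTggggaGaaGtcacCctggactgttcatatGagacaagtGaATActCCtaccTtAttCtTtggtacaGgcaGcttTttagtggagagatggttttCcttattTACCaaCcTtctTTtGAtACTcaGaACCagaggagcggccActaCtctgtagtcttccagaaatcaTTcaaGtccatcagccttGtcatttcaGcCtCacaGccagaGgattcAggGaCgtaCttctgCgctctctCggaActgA
Trav15d-1-dv6d-1: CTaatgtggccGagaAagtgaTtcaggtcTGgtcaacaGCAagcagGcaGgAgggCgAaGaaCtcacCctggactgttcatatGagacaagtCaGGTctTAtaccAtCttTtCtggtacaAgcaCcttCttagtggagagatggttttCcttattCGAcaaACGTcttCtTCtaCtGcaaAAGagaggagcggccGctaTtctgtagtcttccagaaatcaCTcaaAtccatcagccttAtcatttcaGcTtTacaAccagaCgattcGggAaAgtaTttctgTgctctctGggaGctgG

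Trav15-1-dv6-1 and Trav15d-1-dv6d-1 were 94.1% identical over the whole exon, and each was 78.4% and 81.2% identical to Trav15-2-dv6-2, respectively. The annotation also holds copies that the rule did not use. Trav15n-1 differed from Trav15d-1-dv6d-1 in 3 of 303 aligned positions, and Trav15n-2 was identical to Trav15d-2-dv6d-2 over the exon (303 positions, 0 differences). Trav15n-1 had 1 UMI in the members and Trav15n-2 none. Reads shared by such copies cannot be assigned from these files, so the split of members between Trav15-1-dv6-1 and Trav15d-1-dv6d-1 is less certain than the split between either and Trav15-2-dv6-2.

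Depth was close among the groups. The median was 3541.5 UMIs and 1611 genes in members, 3360 UMIs and 1502 genes in Trdv1-only cells and 3119 UMIs and 1469 genes in Trdv2-2-only cells, and the summed depth was 2778859, 2098975 and 2524478 UMIs. The libraries share 23 barcodes, none of them a member. Cd3d, Cd3e, Cd3g or Trdc was read in 97.4% of members. The δ constant gene Trdc alone was read in 41.1% of members, 50.2% of Trdv1-only and 41.2% of Trdv2-2-only cells. For the α constant gene Trac these shares were 11.1%, 10.5% and 6.78%. Cd4 was read in 16 members, 1 Trdv1-only and 4 Trdv2-2-only cells. Whether each dv6 transcript was joined to the δ constant region was not tested. The targeted gene Tcrg-V6 had 0 UMIs in the members, which allows a share of up to 0.426%, whereas Tcrg-V4, the other chain named in the strain, had 141 UMIs in 105 members (14.9%, 12.4 to 17.8). It was read in 12.1% of Trdv1-only and 12.5% of Trdv2-2-only cells. Whether the targeted Tcrg-V4 can still be transcribed in this strain was not tested. For the KO cells of its IL-17-type clusters, another set of cells than the members, the study reports no expression of either targeted gene. Tcrg-V1, the chain of the sort, had 583 UMIs in 308 members (43.8%, 40.0 to 47.5), against 34.4% of Trdv1-only and 33.0% of Trdv2-2-only cells. Tcrg-V3 had 43 UMIs in 22 members, Tcrg-V7 16 in 12 and Tcrg-V5 8 in 3. In 28 cells of the library with B cell or myeloid markers and no CD3 or Trdc UMI, which should lack all of these, no dv6, Tcrg-V1 or Tcrg-V4 UMI was read, which allows a share of up to 10.7% at a median of 2460.5 UMIs.

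The number of effector markers, on which the cells were chosen, was 0 in 324 members, 1 in 259 and 2 in 121. Before the limit was applied, 1014 cells read dv6 genes alone, and 310 of them (30.6%) had 3 or more markers. The same share was 12.4% of 644 Trdv1-only cells and 23.9% of 968 Trdv2-2-only cells. Fewer of the members had none of the markers, with 0 in 324 of 704 members, 321 of 564 Trdv1-only cells and 415 of 737 Trdv2-2-only cells. A gene whose level climbs with the marker number can therefore be higher in the members through that difference, and the ratios over whole groups below are not adjusted for it. For some of these genes the level at equal marker number is given beside the ratio.

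**Figure D1:**
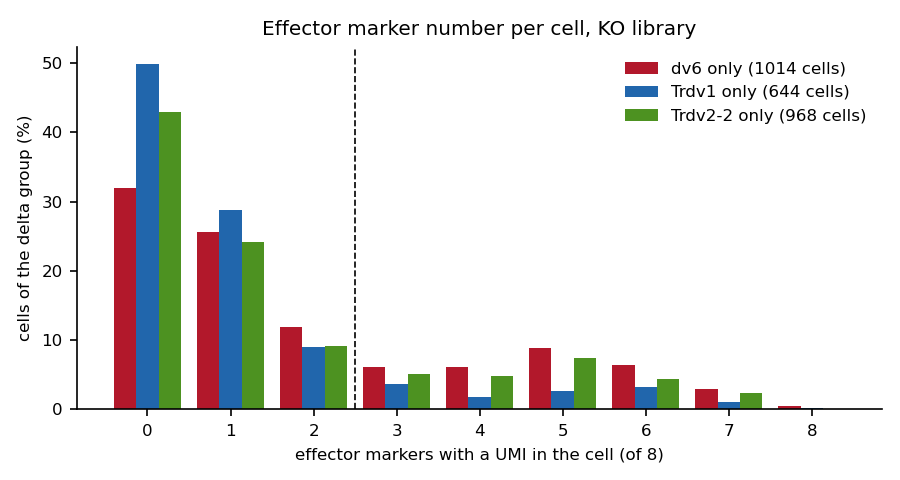
Share of cells (%) with each number of effector markers (0 to 8) in the 1014 dv6-only, 644 Trdv1-only and 968 Trdv2-2-only cells of the KO-labelled library. The dashed line is the limit used to choose members, and 30.6%, 12.4% and 23.9% of the cells, respectively, lie to its right.

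The 4 genes proposed as markers of these cells behaved differently from one another. Levels are given as CPM, the UMIs of a gene scaled by the summed UMIs of its group. Zbtb16 (PLZF; chr9:48654297-48836222) was read in 190 of 704 members, with a median of 0 and at most 8 UMIs in a cell, at 146 CPM against 66.7 in Trdv1-only and 102 in Trdv2-2-only cells. The log2 ratios were 1.13 (95% interval 0.85 to 1.42) and 0.52 (0.29 to 0.75). Ccr4, a receptor for the chemokines CCL17 and CCL22, was read in only 48 members, at 33.1 CPM against 7.62 and 13.1, with log2 ratios of 2.12 (1.34 to 2.98) and 1.34 (0.75 to 1.96). Igfbp4, which binds insulin-like growth factors, was read in 153 members at 159 CPM against 109 and 113, and the log2 ratios were 0.55 (0.32 to 0.79) and 0.49 (0.28 to 0.71). Ccr4 rested on few UMIs against Trdv2-2-only cells, where its ratio was 0.66 (-0.45 to 1.81) with 0 effector markers in both groups. It was 0.16 (-1.33 to 1.71) in the 122 members left after cells with a UMI of an exclusion set were taken out. The set held T cell receptor β, CD4, CD8β, B cell and myeloid genes. Trbc2 of the β locus alone was read in 73.4% of members, so the set does not single out other cell types. In cells thinned to 2000 UMIs the Igfbp4 ratio against Trdv2-2-only cells was 0.22 (-0.11 to 0.55).

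Ccr9, a receptor for the thymic and gut chemokine CCL25, did not set the members apart. It was read in 121 members (17.2%) at 73.8 CPM, between the 59.1 CPM of Trdv1-only and the 96.7 CPM of Trdv2-2-only cells. The log2 ratio was 0.32 (-0.01 to 0.65) against the former and -0.39 (-0.66 to -0.12) against the latter. In the 122 members without UMIs of the exclusion set the second ratio changed sign, at 0.71 (-0.36 to 1.86). At least 1 of the 4 genes was read in 52.3% of members, 41.1% of Trdv1-only and 45.0% of Trdv2-2-only cells, and all 4 together in 8 members. After every cell was thinned to 2000 UMIs, which left 633, 515 and 631 cells, these shares were 40.6% (36.7 to 44.5), 29.3% (25.4 to 33.5) and 35.7% (31.9 to 39.5). Since Ccr9 was not highest in these cells and 336 of the 704 read none of the 4 genes, the cells are called dv6 members here, after the rule that chose them.

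Zbtb16 and Ccr4 moved with the number of effector markers. Zbtb16 was at 82.03 CPM (66.2 to 100.5) in members with 0 markers, 131 with 1 and 300.3 with 2. At 0 markers it was at 47.3 CPM (35.4 to 62.1) in Trdv1-only and 50.3 CPM (38.8 to 64.1) in Trdv2-2-only cells, so that the members were higher beyond the counting intervals also among cells with no effector marker. Ccr4 was at 15.9 CPM (9.41 to 25.1) in members with 0 markers and at 75.5 CPM with 2. At 0 markers the comparison cells were at 5.46 CPM (2.005 to 11.9) and 10.1 CPM (5.36 to 17.2), and the Ccr4 intervals overlap there. Igfbp4 and Ccr9 had no such order, at 112, 209 and 159.8 CPM for Igfbp4 and 80.3, 67.9 and 72.01 CPM for Ccr9 in members with 0, 1 and 2 markers.

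On both sides of the limit, in the 121 members with 2 markers and the 61 dv6 cells with 3 that the rule left out, Zbtb16 was at 300.3 and 415 CPM, Ccr4 at 75.5 and 112, Igfbp4 at 159.8 and 133, and Ccr9 at 72.01 and 59.3. The counting intervals on both sides overlap for each of the 4 genes, for Zbtb16 only just (257 to 349 and 344 to 497). Cd24a, a marker of immature thymocytes, was at 42.2 CPM inside and, with 2 UMIs, at 6.98 CPM outside.

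**Figure D2:**
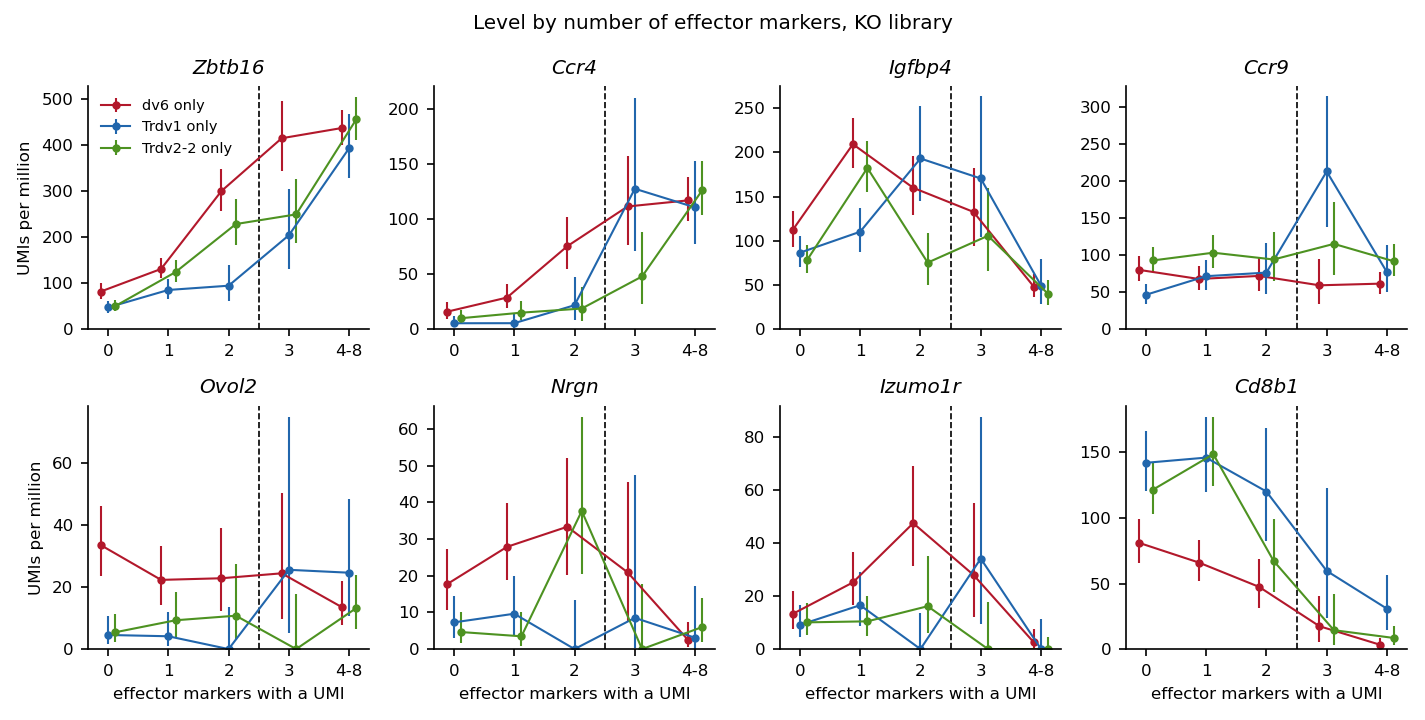
Level of the named genes in CPM by number of effector markers in dv6, Trdv1-only and Trdv2-2-only cells of the KO-labelled library, with exact Poisson 95% intervals of the summed UMIs. Zbtb16 is at 82.03, 131 and 300.3 CPM in members with 0, 1 and 2 markers, and Ccr9 lies between 67.9 and 80.3 CPM in them.

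Most genes were at a like level in members and comparison cells. Of 7615 genes with at least 50 UMIs in the sums compared, 325 (4.27%) were higher by 1.5-fold or more than in Trdv1-only cells and 110 (1.44%) lower, and the median log2 ratio was 0.05. Against Trdv2-2-only cells 215 of 7847 genes (2.74%) were higher and 158 (2.01%) lower, with a median of 0.01. Of the 4 marker genes, 2 (Zbtb16 and Ccr4) were past 1.5-fold against Trdv1-only cells and 1 (Ccr4) against Trdv2-2-only cells. Both comparisons use the same members and are not independent of each other. The ratios below are log2 ratios of CPM, members over comparison cells, with the Trdv1-only value first and 95% counting intervals in parentheses.

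Among genes read in at least 10% of the cells of a group, the widest gap in favour of the members was that of Gng2 (chr14:19872559-19977627), which encodes a γ subunit of heterotrimeric G proteins. It had 91 UMIs in 71 members, and its level was 32.7 CPM in members, 16.7 in Trdv1-only and 10.7 in Trdv2-2-only cells, with log2 ratios of 0.97 (0.40 to 1.58) and 1.61 (0.98 to 2.29). At 0 effector markers it was at 29.1 CPM (20.04 to 40.9) against 10.9 (5.65 to 19.1) and 9.29 (4.801 to 16.2). Parp8, a member of the ADP-ribosyltransferase family, had the most UMIs of the higher genes, with 458 UMIs in 247 members and 165 CPM in members, 77.7 in Trdv1-only and 105 in Trdv2-2-only cells. Its ratios were 1.09 (0.82 to 1.35) and 0.65 (0.42 to 0.87).

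Tnfrsf9, the costimulatory receptor 4-1BB that appears on activated T cells, was at 96.8 CPM in members, 47.2 in Trdv1-only and 59.4 in Trdv2-2-only cells, with log2 ratios of 1.04 (0.70 to 1.38) and 0.70 (0.41 to 1.0). It was at 95.3 CPM (78.1 to 115) in members with 0 markers and 116 CPM (89.7 to 147) in those with 2, whereas the comparison cells with 0 markers were at 39.1 and 51.1 CPM. Ecm1, a secreted matrix protein also made by T helper cells, was at 55.8 CPM in members, 28.1 in Trdv1-only and 32.5 in Trdv2-2-only cells, with ratios of 0.99 and 0.78. Ldhb, the heart-type lactate dehydrogenase subunit, had ratios of 0.76 and 0.86, and Chn2, a GTPase-activating protein for Rac, 1.15 and 0.73. In the 121 members with 2 effector markers Chn2 was at 73.8 CPM and Ldhb at 65.0, against 38.1 and 40.3 CPM over all members. The other genes named by this rule were Scai (1.03 and 0.86), Trerf1 (0.71 and 0.82), the histone gene Hist1h2ae (0.90 and 0.70), Mfsd10 (0.77 and 0.68), the carbonyl reductase Cbr1 (0.67 and 0.66) and the transporter Slc16a6 (0.80 and 0.65). A single member held 21 of the 166 Hist1h2ae UMIs, and Hist1h2ae belongs to a family of near-identical histone genes whose reads may be shared.

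Trbc2, a transcript of the T cell receptor β locus, was read in 73.4% of members, 75.9% of Trdv1-only and 73.0% of Trdv2-2-only cells. Leaving out every cell with a UMI of the exclusion set (Trbc1, Trbc2, Cd4, Cd8b1 and 6 B cell and myeloid genes) thus took out most members and kept only 122. In these the ratios of Ecm1 (-0.11 and -0.48), Tnfrsf9 (-0.11 and -0.16) and Mfsd10 (-1.37 and -0.84) were below 0, all with intervals that held 0. So were Hist1h2ae (-0.33) against Trdv1-only cells and Trerf1 (-0.16) and Slc16a6 (-0.40) against Trdv2-2-only cells. With the groups chosen anew on cells thinned to 2000 UMIs, the Gng2 ratios were 0.39 (-0.54 to 1.35) and 0.70 (-0.26 to 1.70).

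Cd8b1 (chr6:71322788-71337494), the β chain of the CD8 coreceptor, was the furthest below both groups of comparison cells among genes read in at least 10% of the cells of a group. It had 190 UMIs in 90 members, and its level was 68.4 CPM in members, 141 in Trdv1-only and 123 in Trdv2-2-only cells, with log2 ratios of -1.04 (-1.31 to -0.77) and -0.84 (-1.11 to -0.58). The gap was present at 0 effector markers, where it was at 81.1 CPM (65.4 to 99.5) in members, 142 (121 to 166) in Trdv1-only and 122 (103 to 142) in Trdv2-2-only cells. Cd69, an early activation marker that also holds cells in tissue, was at 119 CPM in members, 179 in Trdv1-only and 178 in Trdv2-2-only cells, with log2 ratios of -0.59 (-0.81 to -0.38) and -0.58 (-0.79 to -0.37). The interferon-inducible GTPase genes Igtp (-0.51 and -0.50) and Gbp2 (-0.50 and -0.58) were also lower. In the 122 members without UMIs of the exclusion set the Gbp2 ratio against Trdv1-only cells was 0.89 (-0.31 to 2.26), that of Ndc80 0.18 (-1.38 to 1.9) and that of Atxn1 0.18 (-1.38 to 1.9). There E4f1 was at 0.26 (-1.46 to 2.06) against Trdv2-2-only cells. The remaining genes of this group had between 57 and 67 UMIs in the members and ratios between -0.73 and -0.50. They were Atxn1, the carboxypeptidase gene Cpm, Map3k11, Ift52, the thromboxane receptor gene Tbxa2r, Rpain, the kinetochore gene Ndc80 and E4f1, for which the interval against Trdv2-2-only cells reached 0.02.

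**Figure D3:**
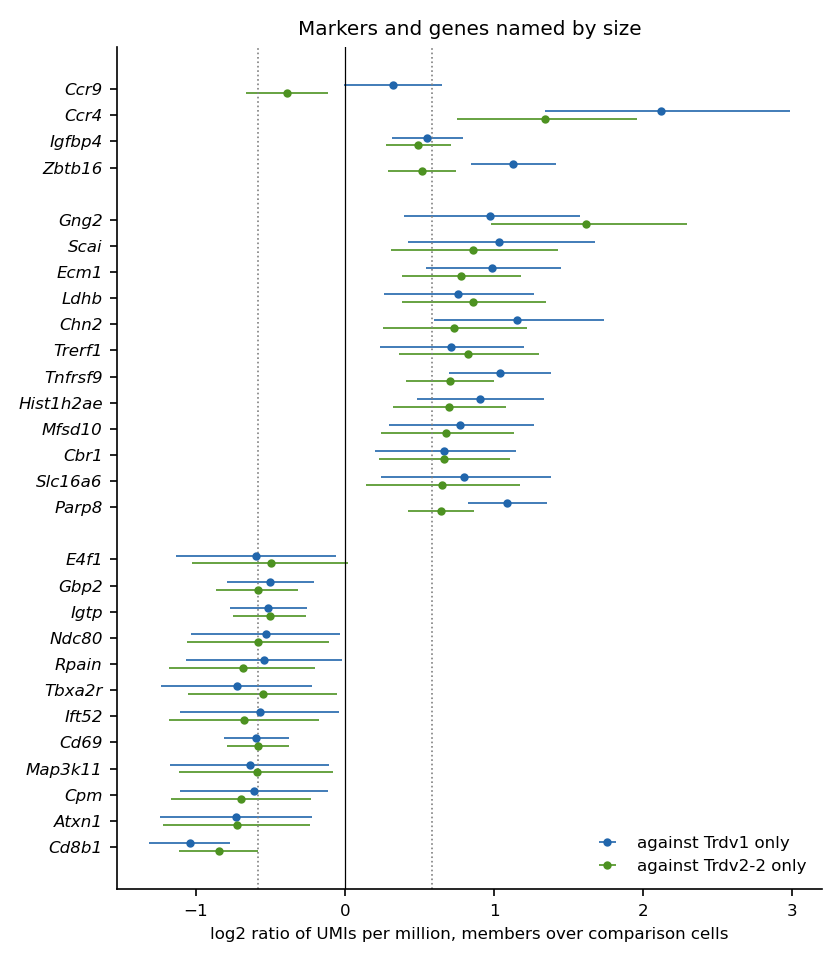
Log2 ratio of CPM, dv6 members over Trdv1-only and over Trdv2-2-only cells, for the 4 markers and the genes named by size, with exact 95% counting intervals and a line at 0. Gng2 lies at 0.97 and 1.61 and Cd8b1 at -1.04 and -0.84, while Ccr9 lies on either side of 0.

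Genes read in fewer than 10% of the cells gave wider gaps, and those named here were chosen after their values were seen. Ovol2 (chr2:144305175-144332146), a zinc finger transcription factor known mainly from epithelial cells, had 75 UMIs in 50 members and at most 4 in a cell. Its level was 26.99 CPM in members, 3.81 in Trdv1-only and 7.53 in Trdv2-2-only cells, with log2 ratios of 2.82 (1.77 to 4.09) and 1.84 (1.1 to 2.65). Unlike Zbtb16 it did not climb with the effector markers. It was at 33.5 CPM (23.7 to 46.00) in members with 0 markers and 22.8 (12.2 to 39.04) with 2, while the comparison cells with 0 markers were at 4.55 (1.48 to 10.6) and 5.42 (2.18 to 11.2). Ovol2 was also read in 1 of the 28 cells with B cell or myeloid markers.

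Ccr8, a chemokine receptor of type 2 and regulatory T cells, had 49 UMIs in 17 members, of which 13 lay in 1 cell and 37 in members with 2 effector markers. Its ratios were 4.21 (2.28 to 7.3), against only 2 UMIs in Trdv1-only cells, and 1.78 (0.87 to 2.78). Nrgn, which encodes the calmodulin-binding protein neurogranin, had 69 UMIs in 39 members and ratios of 1.8 (0.98 to 2.71) and 1.45 (0.75 to 2.2). Izumo1r, folate receptor 4 of regulatory and anergic T cells, had 69 UMIs in 46 members and ratios of 1.24 (0.53 to 2.01) and 1.16 (0.51 to 1.85). Xcl1, a chemokine for cross-presenting dendritic cells, had 49 UMIs in 26 members and ratios of 1.4 and 1.57, with 9 UMIs in 1 cell. The actin-capping gene Capg stood at 2.24 and 1.22, the tetraspanin gene Cd81 at 1.86 and 1.28, Gtf2ird1 at 1.21 and 1.18 and the RNA-binding gene Igf2bp3 at 1.05 and 1.22. The near-identical survival genes Bcl2a1d and Bcl2a1b, whose reads may be shared, stood at 1.79 and 1.02 and at 1.29 and 0.85. Several of these climbed with the effector markers. From 0 to 2 markers, Ccr8 went from 2.65 to 64.99 CPM in members, Capg from 12.3 to 61.5, Bcl2a1d from 13.2 to 104 and Bcl2a1b from 20.3 to 94.8. At 0 markers the counting intervals of Ccr8 (0.546 to 7.73 in members), Capg (6.75 to 20.7), Bcl2a1d (7.40 to 21.8) and Bcl2a1b (12.9 to 30.4) overlapped those of both comparison groups. In the members with 2 markers Xcl1 was at 45.7 CPM, Izumo1r at 47.4 and Cd81 at 31.6. Over all members they were at 17.6, 24.8 and 17.3 CPM. Those with 2 markers held 26 of the 49 Xcl1 and 27 of the 69 Izumo1r UMIs. Nrgn, Gtf2ird1 and Igf2bp3 differed less, at 33.4, 26.3 and 15.8 CPM against 24.8, 19.8 and 14.8 CPM over all members. The ratios of all these genes are not adjusted for marker number. On the low side, Gbp5, an interferon-inducible GTPase gene like Gbp2, had 39 UMIs in 36 members and ratios of -1.0 and -1.23.

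A few high ratios came from very few cells. C1qb, a complement gene of macrophages, had 65 UMIs in 3 members, 52 and 12 of them in 2 cells, and 2 of the 3 also read at least 3 myeloid markers. H2-Eb1, a class II antigen-presentation gene, had 134 UMIs in 7 members, 87 of them in 1 cell. Pclaf, a gene of DNA replication, had 61 UMIs in 11 members. At least 3 of 6 myeloid markers were read in 3 members and at least 3 of 6 B cell markers in 1, and any myeloid marker in 39.1% of members, 33.9% of Trdv1-only and 30.5% of Trdv2-2-only cells. The myeloid list summed to 216 CPM in members, 287 in Trdv1-only and 139 in Trdv2-2-only cells. For B cell markers the shares were 23.0%, 20.4% and 18.2% and the sums 79.5, 79.1 and 76.5 CPM. Of the NK cell markers Klra8 and Klra4, of the endothelial ones Cdh5, and of the red cell ones Hba-a1 and Hbb-bt were at 0 in the members. The part of these transcripts in the results was not tested, apart from the values above without cells that read such genes.

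The gene lists showed where the members stood apart and where they did not, beside medians over all genes of 0.05 and 0.01. Of 19 homing receptors and adhesion genes, 15 could be compared with Trdv1-only and 16 with Trdv2-2-only cells. In each comparison 2 were past 1.5-fold, Ccr8 and Ccr4, none was lower by that much, and the medians were 0.15 and 0.14. Of 15 costimulatory and inhibitory receptors 10 could be compared, with medians of 0.23 in both. Izumo1r, Tnfrsf9 and Nt5e (CD73) were past 1.5-fold over Trdv1-only cells, and Izumo1r, Cd160 and Tnfrsf9 over Trdv2-2-only cells, while Ctla4 was lower than in the latter (-0.74) and at 0.14 against the former. Pdcd1, the inhibitory receptor PD-1, had 1871 UMIs and ratios of 0.56 (0.44 to 0.67) and 0.36 (0.26 to 0.46).

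Of 12 innate and type 2 genes, 5 could be compared with Trdv1-only cells, of which 2 (Zbtb16 and Rora) were past 1.5-fold and none lower by that much, with a median of 0.53. Of the 6 compared with Trdv2-2-only cells none was past 1.5-fold either way, with a median of 0.02. Rora, a transcription factor of innate lymphoid and type 2 cells, had ratios of 0.90 (0.67 to 1.13) and 0.23 (0.05 to 0.42), and climbed with the marker number, from 111 CPM in members with 0 markers (92.6 to 132) to 348 with 2. Trdv1-only and Trdv2-2-only cells with 0 markers were at 86.5 (69.98 to 106) and 106 (89.1 to 125) CPM, with intervals that overlap that of the members. The ratios of Gata3, the type 2 master regulator, were 0.53 (0.13 to 0.94) and 0.38 (0.01 to 0.75). Id2, a regulator of innate and effector lymphocytes, had 649 UMIs and ratios of 0.56 (0.37 to 0.76) and 0.57 (0.39 to 0.76). Il4 had 7 UMIs in 4 members and Il13 10 UMIs in 3, of which 7 lay in 1 cell, and neither was read in the comparison cells, which allows a share of up to 0.532% of Trdv1-only and 0.407% of Trdv2-2-only cells. All members that read Il4 or Il13 also read Zbtb16. None of them had 0 effector markers, and 3 of the 4 with Il4 and all 3 with Il13 had 2. Among dv6 cells with 3 or more markers Il4 was read in 2.26%, against 0.568% of members, and Il13 was not read. Cd40lg, the CD40 ligand, had 35 UMIs (12.6 CPM) in members, 5 (2.38 CPM) in Trdv1-only and 13 (5.15 CPM) in Trdv2-2-only cells. Il2ra, the IL-2 receptor α chain, had 43 UMIs in 32 members against 2 and 20 UMIs, and Foxp3, the regulator of regulatory T cells, 1 UMI in each group. The members with 2 effector markers held 21 of the 35 Cd40lg and 18 of the 43 Il2ra UMIs. In dv6 cells with 3 or more markers Cd40lg was at 97.1 CPM and Il2ra at 198, against 12.6 and 15.5 CPM in members.

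Type 1 and cytotoxic genes (15 of 19 compared) had medians of 0.03 and 0.19. Xcl1, Klrk1 (NKG2D) and Tbx21 (T-bet) were past 1.5-fold over Trdv1-only cells and Gzmb below them, and Xcl1 alone over Trdv2-2-only cells. Ccl5, with 5705 UMIs, stood at -0.48 and 0.00. Of 12 IL-17-type genes only 4 and 5 could be compared, with medians of 0.37 and 0.12. S100a4 and Maf were higher and Cd163l1 lower than in Trdv1-only cells, and 5830411N06Rik lower than in Trdv2-2-only cells. The 14 genes of naive and recirculating T cells were all compared and none was past 1.5-fold, with medians of 0.02 and -0.04. The naive T cell factors Lef1 (0.07 and -0.02) and Tcf7 (-0.07 and 0.02) had ratios near 0, and Klf2 (-0.43 and -0.25) and Ccr7 (-0.40 and -0.39), which direct recirculation, were below them. Of 13 thymic and immature genes 8 were compared, with medians of 0.29 and -0.07. Tox was past 1.5-fold over Trdv1-only cells, Cd24a lay between the groups (0.40 and -0.47), and Rag1, Rag2 and Ptcra had 0 UMIs in members, which allows a share of up to 0.426%.

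The 8 genes of the T cell and γδ receptor complex had medians of 0.12 and 0.10. The γ constant genes Tcrg-C1, Tcrg-C2 and Tcrg-C4, of which the first 2 are alike in sequence, were past 1.5-fold over Trdv1-only cells. Of 20 genes of receptor signal and response 18 were compared, with medians of 0.14 and 0.05. Lcp2 (SLP-76) was higher and Cd69 lower than in Trdv1-only cells, and Cd5, whose level follows receptor signal strength, was past 1.5-fold over Trdv2-2-only cells (0.35 and 0.59). The 11 stress genes were all below 0 in both comparisons, with medians of -0.30 and -0.39. Atf3, Hspa1a and Hspa1b were lower by 1.5-fold in both, and Jun in the first. Cd69 was lower beside them. Hspa1a was read in few cells, 5.40% of members, 6.38% of Trdv1-only and 6.65% of Trdv2-2-only cells, and 44 of its 340 UMIs in members lay in 1 cell. The 11 interferon-stimulated genes compared (of 12) had medians of -0.07 and -0.05, with Ifit1 lower than in Trdv2-2-only cells. Of 8 cell cycle genes 5 were compared, with medians of 0.31 and 0.26 and only Pclaf past 1.5-fold in each. The list of ribosomal protein genes was chosen by the start of the symbol and also took in kinase genes such as Rps6ka5 and Rps6kb1. Its 89 genes compared (of 96) had medians of -0.07 and 0.03 and none past 1.5-fold.

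**Figure D4:**
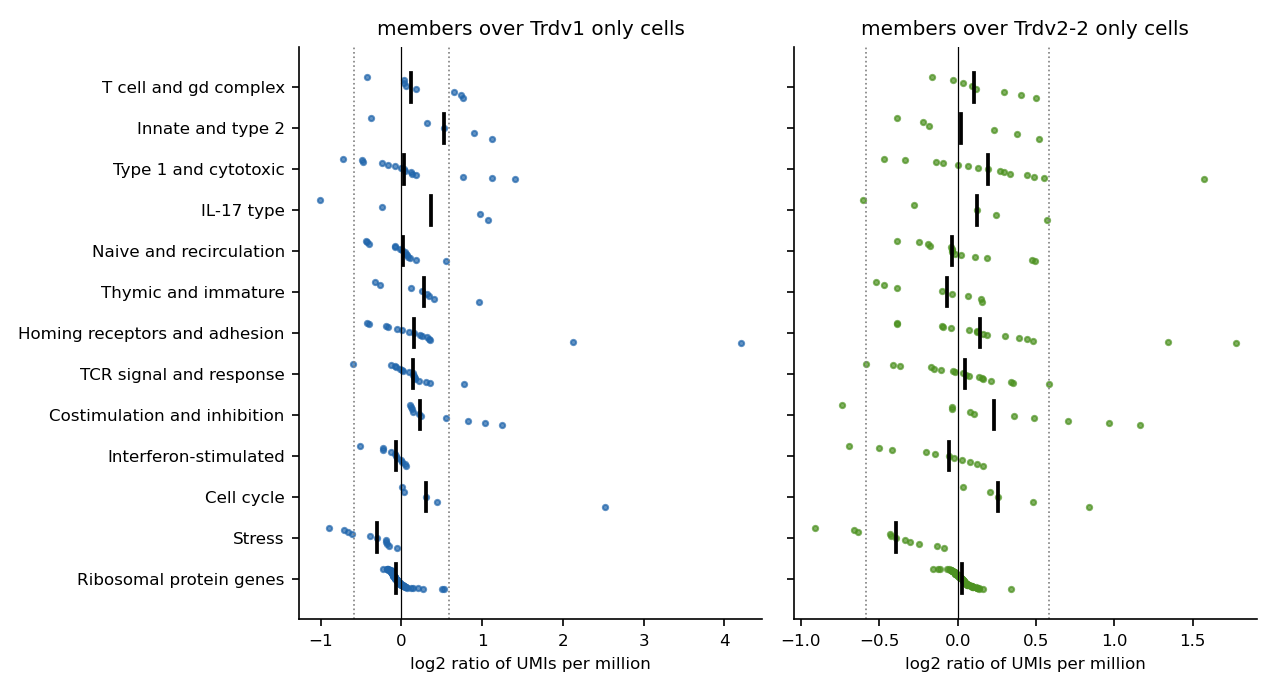
Log2 ratios of the genes of each list, dv6 members over Trdv1-only and over Trdv2-2-only cells, 1 point per gene with at least 50 UMIs over both sums, and the median of each list. Stress genes lie below 0 throughout (medians -0.30 and -0.39), and of the homing receptors only Ccr8 and Ccr4 are past 1.5-fold.

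The members differed among themselves by the dv6 gene they read, compared here over members that read 1 of them. Zbtb16 was at 199 CPM (169 to 234) in the 190 members with only Trav15-1-dv6-1 and at 211 CPM (168 to 261) in the 100 with only Trav15d-1-dv6d-1, the closest pair of the 3 in sequence. In the 358 with only Trav15-2-dv6-2 it was at 94.7 CPM (78.9 to 113). Members with 0 effector markers made up 41.6%, 36.0% and 52.2% of these groups, respectively. Among members with 0 markers, Zbtb16 was at 119 (82.1 to 166) CPM with Trav15-1-dv6-1 and 116 (64.8 to 191) with Trav15d-1-dv6d-1, but at 43.6 (28.7 to 63.4) with Trav15-2-dv6-2, which overlaps the 47.3 and 50.3 CPM of the comparison cells with 0 markers. Nrgn was also lowest with Trav15-2-dv6-2 at 0 markers. With Trav15-1-dv6-1, Trav15d-1-dv6d-1 and Trav15-2-dv6-2 it was at 31.4 (14.4 to 59.6), 46.3 (16.99 to 101) and 4.84 (0.999 to 14.2) CPM, from 9, 6 and 3 UMIs.

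Cd24a was highest with Trav15-2-dv6-2, at 125 CPM (107 to 145), against 56.04 CPM (40.6 to 75.5) with Trav15-1-dv6-1 and 20.1 CPM (8.68 to 39.6) with Trav15d-1-dv6d-1. At 0 markers it was at 159.9 (129.9 to 195), 52.3 (29.3 to 86.3) and 54.01 (21.7 to 111) CPM. Igfbp4 was at 205 CPM with Trav15-1-dv6-1, 138 with Trav15d-1-dv6d-1 and 120.3 with Trav15-2-dv6-2. At 0 markers Igfbp4 was at 143 (103 to 194), 154 (94.3 to 238) and 72.7 (53.0 to 97.2) CPM, respectively. Over all marker numbers Ovol2 was at 23.5 CPM (13.9 to 37.1), 12.6 CPM (4.08 to 29.3) and 28.6 CPM (20.2 to 39.2), with overlapping intervals. Ccr9 also overlapped in all 3, at 74.3, 67.8 and 78.2 CPM.

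Members with only Trav15d-1-dv6d-1 were highest in Ly6c2, a surface protein of memory and effector T cells, at 698 CPM (619 to 785) against 237 CPM (204 to 274) with Trav15-1-dv6-1 and 344 CPM (314 to 377) with Trav15-2-dv6-2. Izumo1r was at 55.3 CPM (34.6 to 83.7) in them against 23.5 and 18.05. At 0 markers Izumo1r was at 23.1 CPM (4.77 to 67.6, 3 UMIs) in them against 20.9 (7.68 to 45.5) and 8.07 (2.62 to 18.8), with overlapping intervals. Ly6c2 stayed highest in them at 0 markers, at 579 CPM (455 to 725) against 265 (209 to 332) and 331 (287 to 380). Tcrg-V4 was read in 24.0% of them (16.02 to 33.6), 13.2% (8.70 to 18.8) of those with Trav15-1-dv6-1 and 12.3% (9.07 to 16.1) of those with Trav15-2-dv6-2, and Tcrg-V1 in 49.0%, 47.4% and 38.0%. Of the 7 Il4 UMIs, 6 lay in 3 members with only Trav15d-1-dv6d-1. Among all dv6 cells with 1 dv6 gene, whatever their marker number, 50.2% (43.1 to 57.4) of 201 with Trav15d-1-dv6d-1, 33.1% (27.7 to 38.9) of 284 with Trav15-1-dv6-1 and 20.4% (16.8 to 24.5) of 450 with Trav15-2-dv6-2 had 3 or more effector markers.

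**Figure D5:**
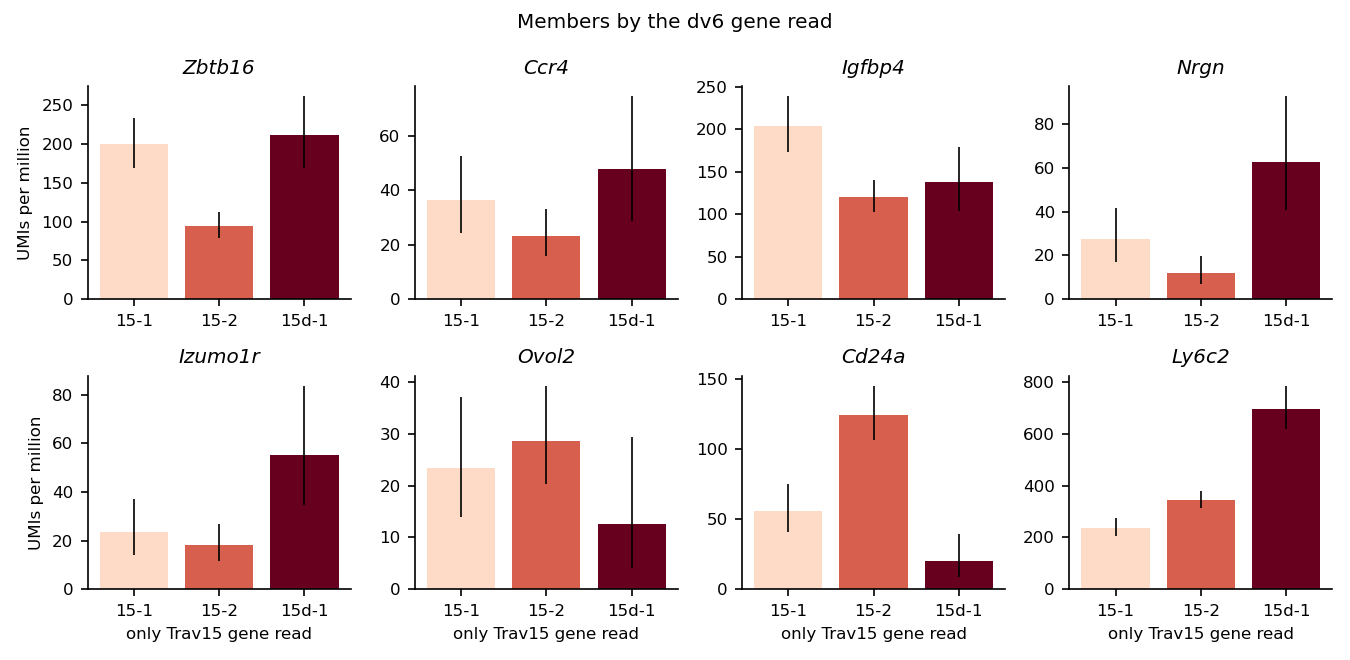
Level in CPM of the named genes in members that read only Trav15-1-dv6-1 (190 cells), only Trav15-2-dv6-2 (358) or only Trav15d-1-dv6d-1 (100), with exact Poisson 95% intervals. Zbtb16 is lowest with Trav15-2-dv6-2 (94.7 CPM) and Cd24a highest (125 CPM), while the Ovol2 intervals overlap.

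The 190 members in which Zbtb16 was read were compared with the 514 in which it was not, as a description, since a UMI of Zbtb16 is more likely in deeper cells (median 4443 and 3347.5 UMIs) and cells with more markers (62 and 59 cells with 2 markers). Genes higher with Zbtb16 included Ccr4 (log2 ratio 2.3 [1.64 to 3.0]), Ccr8 (2.29 [1.38 to 3.27]), Nrgn (2.02 [1.27 to 2.8]), Izumo1r (2.02 [1.27 to 2.8]), Gtf2ird1 (2.15 [1.3 to 3.05]), Cd40lg (1.7 [0.65 to 2.78]), Rora (1.58 [1.33 to 1.83]), Id2 (1.31 [1.09 to 1.54]) and Gata3 (1.09 [0.62 to 1.57]). Genes lower with Zbtb16 included Cd24a (-1.38 [-1.94 to -0.86]), Cd8b1 (-0.94 [-1.5 to -0.41]), Cd69 (-0.68 [-1.07 to -0.30]) and Ccr7 (-0.62 [-0.79 to -0.45]). The intervals of Ccr9 (-0.06 [-0.51 to 0.38]) and Ovol2 (-0.25 [-1.05 to 0.50]) held 0. Ccr4, Ccr8, Nrgn and Izumo1r, all higher in members than in the comparison cells, were thus read more in the members with Zbtb16, whereas for Ovol2 no such difference was detectable at this depth.

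In the library labelled WT, the same rule found 40 cells, of which 23 had 0 markers, 13 had 1 and 4 had 2, beside 14 Trdv1-only and 214 Trdv2-2-only cells. Values are set side by side, and the WT sums are small. Zbtb16 was at 65.5 CPM (11 UMIs) in the WT dv6 cells and 17.4 CPM (13 UMIs) in the WT Trdv2-2-only cells, and had 0 UMIs in the 14 Trdv1-only cells, which allows a share of up to 21.4%. Ccr4 was at 59.5 CPM (10 UMIs in 4 cells) in dv6, 52.3 (3 UMIs) in Trdv1-only and 8.02 (6 UMIs) in Trdv2-2-only cells. Igfbp4 was at 83.4 CPM (14 UMIs) in dv6 cells, below the 244 CPM (14 UMIs) of Trdv1-only and above the 62.8 CPM (47 UMIs) of Trdv2-2-only cells. Nrgn was at 59.5 CPM (10 UMIs in 4 cells) in dv6 and 5.35 (4 UMIs) in Trdv2-2-only cells, with 0 UMIs in Trdv1-only cells.

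Within the WT library Gng2, Hist1h2ae and Ovol2 were not highest in the dv6 cells, which held at most 10 UMIs of each. Gng2 was at 5.95 CPM (1 UMI) in WT dv6 cells, 34.8 (2 UMIs) in Trdv1-only and 36.1 (27 UMIs) in Trdv2-2-only cells. Its intervals were 0.15 to 33.2, 4.22 to 126 and 23.8 to 52.5 CPM, respectively, and overlap. Hist1h2ae was at 59.5 CPM (10 UMIs) in dv6 and 158 (118 UMIs) in Trdv2-2-only cells, with 0 UMIs in Trdv1-only cells. Ovol2 was not read in the 40 dv6 cells, which allows a share of up to 7.5% of them, nor in the 14 Trdv1-only cells, and was at 17.4 CPM (13 UMIs) in Trdv2-2-only cells. Tnfrsf9 was at 185 CPM (31 UMIs), 122 (7 UMIs) and 65.5 (49 UMIs) in dv6, Trdv1-only and Trdv2-2-only cells, and Cd8b1 at 11.9 (2 UMIs), 69.7 (4 UMIs) and 54.8 (41 UMIs).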

How the data were processed

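Lung γδ T cells of 2 sorted populations were profiled by droplet single-cell RNA-seq, 1 library each. The deposited values are counts of UMIs per gene and barcode, made by the authors with Cell Ranger on mm10. The file headers name release 7.0.0 and the study's methods an older one. The labels name a 3' kit and the study's methods a V(D)J kit, so the end of the transcript that was read, and with it how reliably variable genes were assigned, is uncertain. Reads of near-identical variable genes may be shared or lost.

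Barcodes with more than 200 and fewer than 4000 genes and under 10% mitochondrial UMIs were kept, as in the study's methods. This leaves more cells in both libraries than the study states. Each cell was assigned by the rule in the first paragraph. For each group the UMIs of a gene were added up and scaled by the group's total, as CPM. Log2 ratios of CPM have exact conditional binomial 95% intervals, shares of cells Clopper-Pearson intervals and levels exact Poisson intervals, all covering counting error only. With 1 library there is no replicate error, and no p-value is given. Genes with at least 50 UMIs over both sums were compared, leaving out the δ variable genes and effector markers of the rule, and 1.5-fold marks a larger difference. A count of 0 is read against a floor of 3 counts. Shares were also taken after thinning cells to 2000 UMIs.

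Named genes were the 4 markers, the genes of the lists, and the 12 highest and 12 lowest by the smaller of both ratios among genes read in at least 10% of the cells of a group, apart from T cell receptor, sex-linked, effector marker and predicted genes. The members, markers and lists were chosen with earlier results of these data known. Doublets were not removed, since Scrublet's own threshold marked 0 of 6634 kept cells. Alternatives varied the marker limit, δ and γ chain evidence, depth, cell filters, the exclusion set, doublet score, weighting, UMI minimum, fold and scaling. The scripts were tested on simulated data. Python 3.11.15, numpy 2.4.6, scipy 1.17.1, pandas 2.3.3, scanpy 1.11.5 and matplotlib 3.10.9 were used. Sequences and positions came from the GENCODE annotation of GRCm38.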

Additional observations from a re-analysis of the deposited data

Results flagged for a closer look

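Transcripts of other α locus genes that can serve as δ chains, which the rule did not use, were read in some members. Trav13-4-dv7 had 214 UMIs in 42 members (5.97%, 4.33 to 7.98), above the 0.426% that a count of 0 would allow, against 3.72% of Trdv1-only and 5.83% of Trdv2-2-only cells. Trav21-dv12 had 71 UMIs in 14 members (1.99%, 1.09 to 3.31), against 2.66% and 4.07%. By dv6 gene, Trav13-4-dv7 was read in 3.16% of members with only Trav15-1-dv6-1, 7.26% with only Trav15-2-dv6-2 and 7.00% with only Trav15d-1-dv6d-1, with overlapping intervals.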

How the results depend on the processing

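No paired analysis was possible because the design holds no replicates. The alternative without called doublets was not run, since Scrublet called none. Those without B cell or myeloid UMIs, without the 5% of cells with the highest doublet score and without other δ-capable genes were chosen after seeing the data. Of the values for single genes, 772 stayed within their 95% interval, 56 moved out of it and 10 reversed. The 10 reversed values changed sign from a ratio past 1.5-fold, and 4 of the moved values changed sign from a ratio within it. These 14 changes of sign all came without cells with UMIs of the exclusion set, and all had an interval that held 0. The number of members was 324 with 0 effector markers, 444 with at least 2 δ UMIs, 308 with Tcrg-V1 required and 122 without cells with UMIs of the exclusion set. Genes higher and lower than in Trdv1-only cells, then in Trdv2-2-only cells, were 738, 289, 524 and 346 at a minimum of 20 UMIs, 135, 44, 74 and 63 at 100, 3633, 2007, 2979 and 2422 with no minimum, and 65, 11, 33 and 17 at 2-fold. Many genes past 1.5-fold thus have few UMIs.

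Without cells with UMIs of the exclusion set these counts were 169, 60, 123 and 102 (fewer genes could be compared), and the median of the 4 markers against Trdv1-only cells was 1.23. There, Ecm1 (-0.11 and -0.48), Tnfrsf9 (-0.11 and -0.16) and Mfsd10 (-1.37 and -0.84) changed sign in both comparisons, Hist1h2ae (-0.33) and Atxn1 (0.18) against Trdv1-only cells, and Trerf1 (-0.16) and Slc16a6 (-0.40) against Trdv2-2-only cells. Of the ratios within 1.5-fold, Gbp2 (0.89) and Ndc80 (0.18) changed sign against Trdv1-only cells and Ccr9 (0.71) and E4f1 (0.26) against Trdv2-2-only cells, and Ccr4 against Trdv2-2-only cells was at 0.16. List medians there against Trdv1-only cells were 0.27 for the T cell and γδ complex, 0.17 for interferon-stimulated, -0.19 for stress and -0.16 for ribosomal protein genes. Against Trdv2-2-only cells they were 0.082 for costimulation and inhibition, 0.15 for interferon-stimulated and -0.020 for ribosomal protein genes. The cause was not tested.

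With 0 effector markers, IL-17-type genes had medians of -0.43 and -0.66, stress genes -0.17 and -0.22, and thymic and immature genes 0.53 against Trdv1-only cells. With fewer than 4 markers, innate and type 2 genes were at 1.02 and IL-17-type genes at 0.94 against Trdv1-only cells. With at least 2 δ UMIs, thymic and immature genes were at -0.30 against Trdv2-2-only cells. With Tcrg-V1 required, IL-17-type genes were at -0.39 and thymic and immature genes at 0.057 against Trdv1-only cells, and cell cycle genes at -0.013 and stress genes at -0.20 against Trdv2-2-only cells. Cell cycle genes against Trdv2-2-only cells were at 0.39 with fewer than 2 markers, with cells weighted equally and without B cell or myeloid UMIs. The other 364 list medians and 29 marker medians stayed within their spread.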
